A study of Mus musculus with 10 samples.

Results

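Deep-layer corticofugal neurons are the projection neurons of cortical layers V and VI whose axons leave the cortex, and 10 genes that are known to specify them or to mark their subtypes were examined in sorted embryonic mouse cells. The genes were Tbr1, Tle4, Zfpm2 and Foxp2, grouped here as corticothalamic, Fezf2, Bcl11b and Crym, grouped as subcerebral, and Sox5, Bcl11a and Foxp1, grouped as shared. They were taken by symbol from the deposited count table, which held all 10 of them among 14300 genes. The cells came from C57BL/6J embryos of the Grem1creERT; Rosa26LSLTdtomato reporter line, in which Cre is driven by Grem1, a secreted antagonist of bone morphogenetic proteins, and becomes active only with tamoxifen. Tamoxifen was given to the pregnant dams at E13.5, and live cells were sorted 24 h later, at E14.5, into TdTomato+ and TdTomato− populations. Both populations had the same tamoxifen exposure, and they carried the same alleles if all embryos sorted together did, which is not stated. They differed in whether the reporter had recombined in the cell or its forebears. Each of 5 mice, numbered 2 to 6, gave 1 library of each population, so that 10 libraries formed 5 pairs. Whether a library holds 1 embryo or several of a litter is not given in the sources used here, so the spread between mice may be one between pools. The labels name sorted brain cells and the study's methods name dissected dorsal telencephalon with the meninges removed.

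Tbr1 and Fezf2 encode transcription factors of opposing roles, since Tbr1 is known to repress Fezf2 in neurons of corticothalamic fate. Fezf2 acts upstream of Bcl11b, also called Ctip2, in the neurons that send axons to the brainstem and spinal cord, whereas Tbr1 favours the layer VI neurons that project to the thalamus. Sox5 is known to time the emergence of these classes. Tle4 and Zfpm2 (Fog2) encode cofactors that act through DNA-bound partners, and Crym encodes a thyroid hormone binding protein, so 3 of the 10 genes are not sequence-specific transcription factors. Foxp1, Foxp2 and Bcl11b are also well known in striatal projection neurons.

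Sequence upstream of the annotated start was shown for 3 of the genes that rose together and whose 250-base RefSeq window had a stretch outside every annotated exon (assembly GRCm38.p6). These are Fezf2 at chr14:12345960-12346115, Sox5 at chr6:143947107-143947356 and Tle4 at chr19:14598184-14598433, all on the minus strand and printed 5′ to 3′, with capitals marking the E-box CANNTG, the letters read by basic helix-loop-helix factors such as those of the Neurod family.
Fezf2: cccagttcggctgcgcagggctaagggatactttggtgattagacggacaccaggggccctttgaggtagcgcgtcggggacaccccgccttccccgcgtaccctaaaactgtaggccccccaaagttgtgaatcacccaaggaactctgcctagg
Sox5: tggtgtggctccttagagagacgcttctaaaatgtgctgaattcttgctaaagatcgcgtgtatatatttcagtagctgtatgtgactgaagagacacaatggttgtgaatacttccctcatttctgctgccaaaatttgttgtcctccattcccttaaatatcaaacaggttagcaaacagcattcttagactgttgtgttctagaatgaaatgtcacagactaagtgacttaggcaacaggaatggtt
Tle4: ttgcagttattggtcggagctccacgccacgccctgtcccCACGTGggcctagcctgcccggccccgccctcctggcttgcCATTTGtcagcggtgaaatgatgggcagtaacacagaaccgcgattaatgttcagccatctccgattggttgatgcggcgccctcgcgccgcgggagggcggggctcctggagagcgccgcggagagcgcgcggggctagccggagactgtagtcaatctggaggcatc
Of the 10 genes, 7 had a window, 10 windows in all, and Zfpm2, Foxp2 and Crym had none in the table. The Fezf2 and Sox5 stretches lie in introns of the gene as annotated by GENCODE, before an internal start, and the Tle4 stretch lies outside its gene. The Fezf2 and Sox5 windows held no E-box on either strand, nor any of 4 other motifs searched on both strands, AACAAT (Sox), GTAAACA (forkhead), TGACCA (Bcl11a) and TAATTA (homeodomain). The Tle4 stretch held 2 E-boxes, CACGTG and CATTTG, and the other Tle4 window held no E-box and 1 AACAAT. The Bcl11b window held none of the motifs, the Bcl11a window 1 CANNTG, and the 3 Foxp1 windows 5 CANNTG, 1 AACAAT and 1 TAATTA in all. Among all 32851 windows of this length, 66.2% held CANNTG, 9.42% AACAAT, 3.17% GTAAACA, 11.4% TGACCA and 4.84% TAATTA. The Tbr1 window, which lies within an annotated exon and is not printed, held 1 CANNTG, 1 AACAAT, 1 TGACCA and 2 TAATTA. The Sox motif can share bases with an E-box, as in 1 Foxp1 window, and a match is a description of letters only.

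The libraries held 23429034 to 27286180 counts of reads on genes, and no member was near the floor of 3 counts. Grem1 itself was 6.11 ± 0.731 CPM (mean ± s.d., n = 5, with CPM the count scaled to a common effective library size) in TdTomato− cells and 63.3 ± 3.10 CPM in TdTomato+ cells, so the sort followed the labels (log2 fold change 3.37, adjusted p = 1.78e-09, edgeR). All 11 progenitor genes and all 8 interneuron genes of the reference lists were lower in TdTomato+ cells, where the summed interneuron level was 45.7 to 69.6 CPM against 1365 to 1747 CPM. The pan-neuronal list rose in 9 of 10 genes (8 with library size alone, where Rbfox3 was at 0.14 with an adjusted p of 0.0689), and Neurod2, Neurod6 and Slc17a7, which mark pallial glutamatergic neurons, rose by 1.55, 1.59 and 2.69 on the log2 scale. The exceptions in these lists were Elavl4, which fell by 0.43, Slc17a6, which fell by 2.54, and Bhlhe22, which did not pass (0.23, adjusted p = 0.317). Microglial C1qa and C1qb did not exceed the floor in any TdTomato+ library. In bulk RNA, fewer cells of a type and less RNA per cell cannot be told apart, and the TdTomato− libraries held both more progenitor and more interneuron RNA, whose part in the members' differences was not tested.

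Of the 10 genes, 9 were higher in TdTomato+ cells at an adjusted p of 0.05 or less (edgeR's quasi-likelihood test with Benjamini-Hochberg adjustment), against 37.9% of all genes tested, and Foxp2 was the exception. Zfpm2, Crym, Sox5, Fezf2 and Tbr1 rose at least 4-fold, that is by 2 or more on the log2 scale, as 3.20% of all genes did. None was lower, against 39.4% of all genes, and none was lower at an unadjusted p under 0.05 or with DESeq2, but Foxp2 was lower with library size alone as the scaling and without mouse 6. For 8 of the 10 every TdTomato+ library lay above every TdTomato− library, as for 29.1% of all genes. The median log2 fold change was 2.14 over the members and −0.01 over all 14300 genes. With 5 pairs the smallest p that an exact two-sided sign-flip test of 1 gene can give is 0.0625, so the tests used here are those of the model fitted across all genes.

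**Figure D1:**
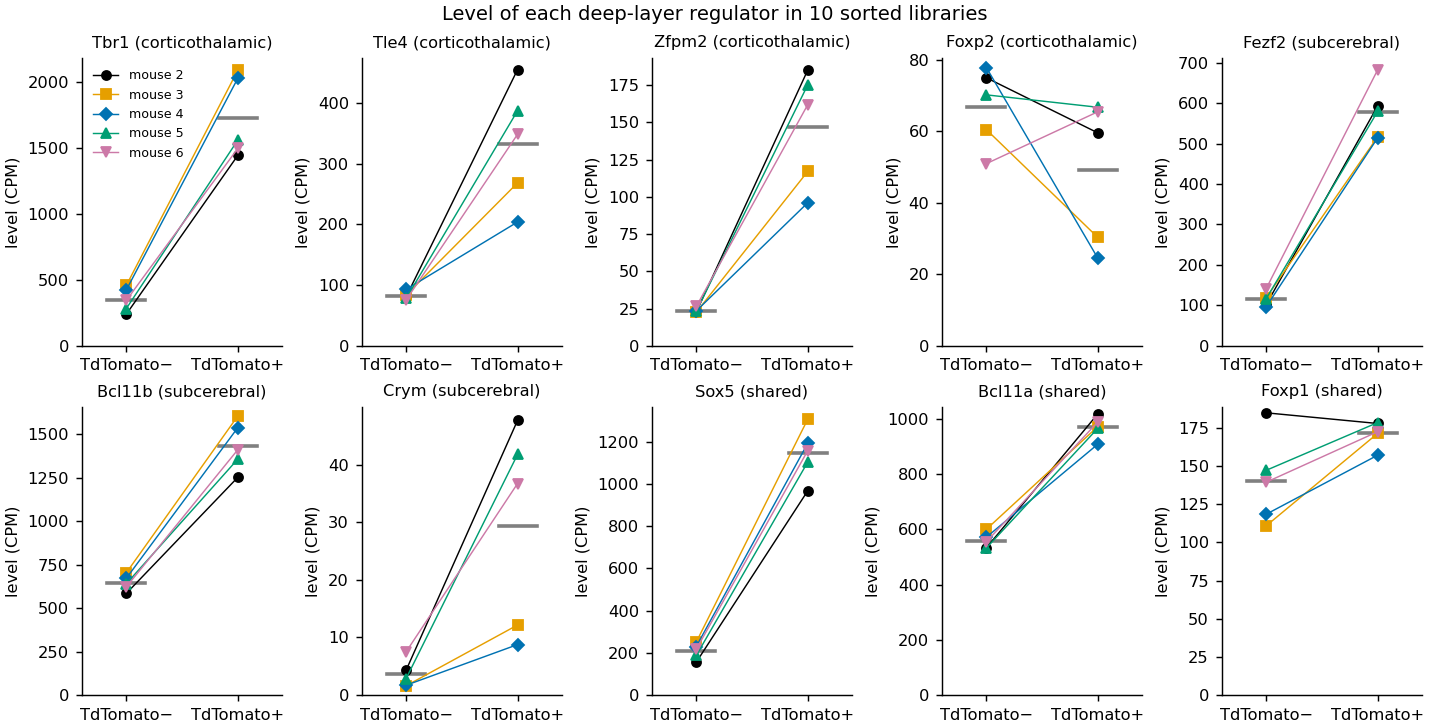
Level of each gene in CPM (linear axes starting at 0) in the TdTomato− and TdTomato+ library of each of 5 mice, with a line joining the 2 libraries of a mouse and a grey bar at the mean of each population. All lines rise for 8 genes, 1 falls for Foxp1 (mouse 2) and 4 fall for Foxp2 (all but mouse 6).

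Among the corticothalamic genes, Tbr1 (ENSMUSG00000035033, GRCm38 chr2:61802930-61814114, plus strand) had TdTomato− levels of 240.3, 458, 424, 283 and 345 CPM in mice 2 to 6. The TdTomato+ levels of the same mice were 1442, 2087, 2026, 1558 and 1495 CPM. The lowest TdTomato+ library held over 3 times as much as the highest TdTomato− library, and mice 3 and 4 were the highest in both populations. Tbr1 rose by 2.32 in log2 units (s.e. 0.071, adjusted p = 7.77e-09, higher in 5 of 5 mice).

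Tle4, a Groucho-family co-repressor (chr19:14448150-14598051, minus strand), had 80.7, 83.6, 92.8, 78.1 and 75.6 CPM in TdTomato− cells. TdTomato+ cells held 455, 268, 204, 387 and 348 CPM. The TdTomato− libraries lay close together, while mice 3 and 4 were well below the other TdTomato+ libraries. Tle4 rose by 1.97 log2 units (s.e. 0.177, adjusted p = 7.6e-06), just short of a 4-fold change. Without mouse 3 or mouse 4 it rose by 2.04 or 2.17, and with no pairing of libraries by 2.02, and in each of these cases 6 members passed a 4-fold change.

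Zfpm2, a zinc-finger partner of GATA factors (chr15:40655035-41104592, plus strand), was at 22.7, 22.5, 23.5, 23.3 and 26.4 CPM in TdTomato− cells. Its TdTomato+ levels were 185, 117, 96.1, 175 and 162 CPM. As for Tle4, mice 3 and 4 were the lowest of the TdTomato+ libraries, and the populations were far apart in every mouse. The log2 increase was 2.59 (s.e. 0.133, adjusted p = 1.69e-07).

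Foxp2, a forkhead factor of layer VI and of the striatum (chr6:14901349-15441977, plus strand), had TdTomato− levels of 75.0, 60.5, 77.8, 70.2 and 51.0 CPM. In TdTomato+ cells it was at 59.6, 30.3, 24.5, 66.7 and 65.5 CPM. The populations overlapped, with mice 3 and 4 at the bottom of the TdTomato+ libraries and mouse 6 the only one with more in TdTomato+ cells. Its log2 fold change was −0.52 (s.e. 0.247, adjusted p = 0.0812), and the differences within mice ran from −1.66 in mouse 4 to 0.36 in mouse 6 (log2 units). Without mouse 6 the log2 fold change was −0.74 (adjusted p = 0.0163), and with library size alone it was −0.70 (adjusted p = 0.0288). The call thus depended on 1 mouse and on the scaling. Without mouse 4 the log2 fold change was −0.25 (adjusted p = 0.222), and without mouse 3 it was −0.40 (adjusted p = 0.217). Foxp2 was the 1 member of its group that did not rise.

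The subcerebral genes were higher in TdTomato+ cells in all 3 cases. Fezf2 (ENSMUSG00000021743, chr14:12342094-12348189, minus strand) had 102, 119, 96.8, 117 and 142 CPM in TdTomato− cells. The TdTomato+ libraries of mice 2 to 6 held 593, 517, 514, 579 and 682 CPM. No library of either population came near the other, and mouse 6 was the highest in both. Fezf2 rose by 2.33 log2 units (s.e. 0.0611, adjusted p = 4.13e-09).

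Bcl11b (chr12:107910403-108003602, minus strand) was already abundant in TdTomato− cells, at 585, 704, 672, 640.3 and 623 CPM. Its levels in TdTomato+ cells were 1253, 1606, 1539, 1358 and 1412 CPM. The 5 mice had close to the same difference, from 1.08 to 1.20 on the log2 scale, and mice 3 and 4 were the highest in both populations. The fitted increase was 1.15 (s.e. 0.0372, adjusted p = 1.04e-08), smaller than that of Fezf2.

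Crym (chr7:120186380-120202111, minus strand) was low in TdTomato− cells, with 4.3, 1.59, 1.68, 2.85 and 7.49 CPM. The TdTomato+ levels were 47.7, 12.1, 8.74, 41.7 and 36.7 CPM. Mice 3 and 4 were again the lowest in TdTomato+ cells, by a factor of 3 or more against the other mice, and also the lowest in TdTomato− cells. Even so the populations did not overlap, and Crym had the largest increase of the 10, 3.01 log2 units (s.e. of 0.223, adjusted p = 1.99e-06).

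Of the shared genes, Sox5 (chr6:143828425-144781977, minus strand), an SRY-box factor, had 155, 251, 229.7, 187 and 217 CPM in TdTomato− cells. TdTomato+ cells held 968, 1307, 1193, 1104 and 1158 CPM. The lowest TdTomato+ library was more than 3 times the highest TdTomato− library, and mouse 2 was the lowest in both populations. The log2 increase was 2.47 (s.e. 0.0511, adjusted p = 1.75e-09). An antisense gene, Sox5os1, overlaps 9.25% of its exonic bases, and the strand setting of the counting is not given in the sources used here, so reads of that stretch cannot be assigned.

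Bcl11a (chr11:24078056-24174123, plus strand), a zinc-finger paralog of Bcl11b, was at 533, 600.1, 571, 533 and 555 CPM in TdTomato− cells. The TdTomato+ libraries held 1018, 972, 908, 966 and 989 CPM. The libraries of each population lay within a narrow band, and the bands were well apart. Bcl11a rose by 0.80 log2 units (s.e. 0.0475, adjusted p = 4.57e-07). An antisense gene overlaps 2.4% of its exonic bases.

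Foxp1 (chr6:98925338-99522721, minus strand), a forkhead factor of several cortical layers and of the striatum, had TdTomato− levels of 185, 111, 118.5, 147 and 139.5 CPM. Its TdTomato+ levels were 178, 171.5, 157, 179 and 173 CPM. The populations overlapped, because mouse 2 had the highest TdTomato− level of all and no increase. The other 4 mice were higher in TdTomato+ cells, and the fitted increase of 0.31 (s.e. 0.0829, adjusted p = 0.00712) was the smallest among those that passed the test. With library size alone as the scaling, under which the median of all genes moves to −0.18, Foxp1 was at 0.14 with an adjusted p of 0.182. Genes annotated on the same strand overlap 3.16% of its exonic bases.

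**Figure D2:**
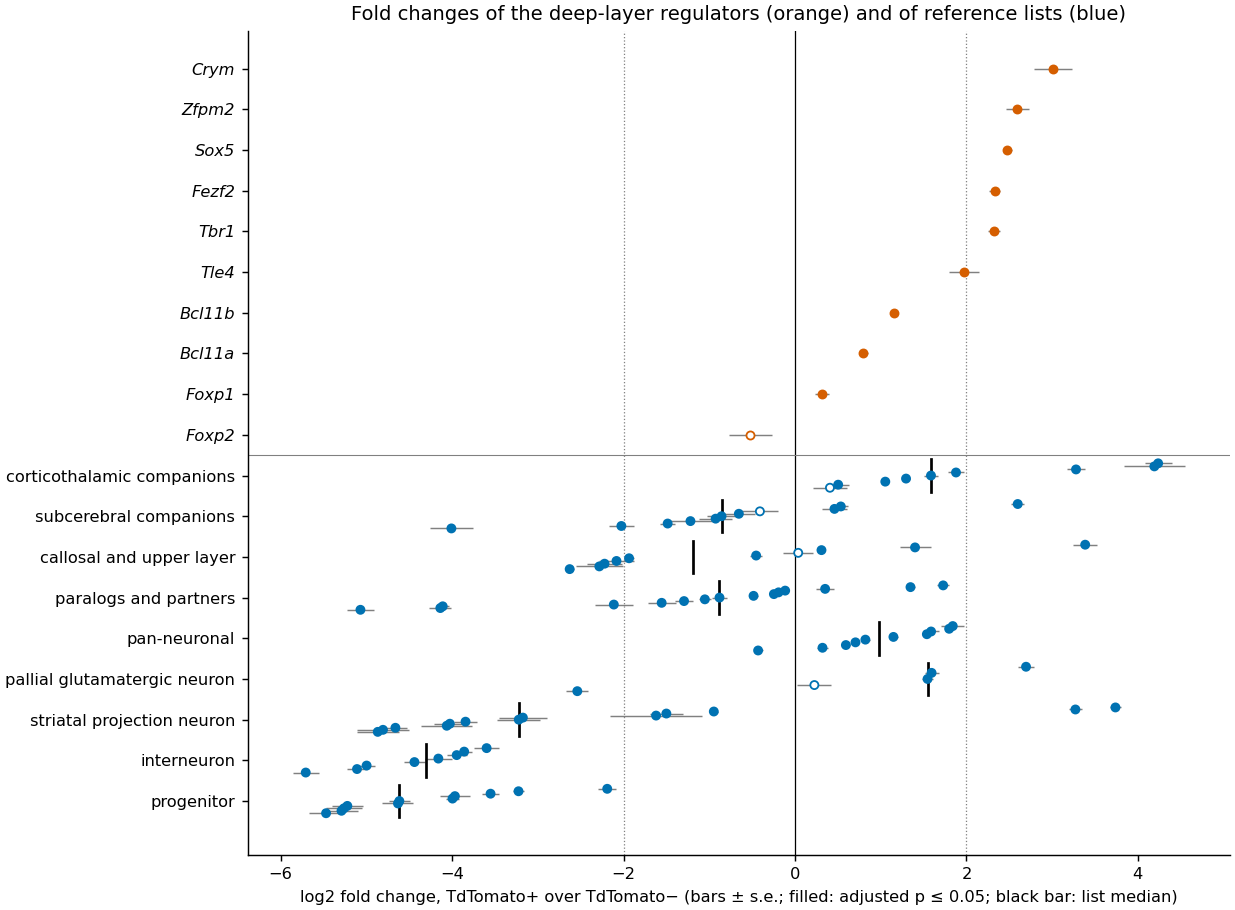
Log2 fold change of TdTomato+ over TdTomato− cells, with bars of ± 1 s.e., for the 10 members (orange, 1 row each) and for the genes of 9 reference lists (blue, 1 row a list, black bar at the list's median). Filled points passed an adjusted p of 0.05, and dotted lines stand at −2 and 2. Members run from Foxp2 at −0.52 to Crym at 3.01, and the lists from the progenitor median of −4.62 to the corticothalamic companion median of 1.59.

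The size of the change did not follow the division into corticothalamic and subcerebral genes. Tbr1 and Fezf2 changed by nearly the same amount, and the log2 ratio of Tbr1 to Fezf2 differed by −0.01 ± 0.136 between TdTomato+ and TdTomato− cells (mean ± s.d., n = 5 mice). Gene length cancels in such a difference. The ratio of Fezf2 to Bcl11b was higher in TdTomato+ cells in 5 of 5 mice, by 1.18 ± 0.191, and that of Tbr1 to Bcl11b by 1.17 ± 0.244. Bcl11a fell behind Bcl11b in every mouse, by 0.35 ± 0.159 on the log2 scale. These ratios are descriptions of the same libraries, with no test.

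A mean of the corticothalamic genes (Tbr1, Tle4, Zfpm2, Foxp2) minus a mean of the subcerebral genes (Fezf2, Bcl11b, Crym), taken on log2 CPM in each library, fell by 0.56 ± 0.356 from TdTomato− to TdTomato+ cells (n = 5 mice). The change was −0.42, −0.75, −1.03, −0.51 and −0.09 in mice 2 to 6, the same direction in all 5. It rested on single genes at the ends of the range, since it was −0.16 without Crym, which had risen most, and 0.15 without Foxp2, which had not risen. The log2 fold changes of the groups interleaved, from −0.52 to 2.59 in the corticothalamic and from 1.15 to 3.01 in the subcerebral group. The level of the mean itself depends on gene length and is not given a meaning here.

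The order of the levels was read per length, as CPM per kb of exon. In TdTomato+ cells Tbr1 came first with 314 ± 56.4 CPM per kb, above Fezf2 at 189 ± 22.6 and Bcl11b at 177 ± 17.4, whose ranges overlapped. Sox5 (79.7 ± 8.65), Bcl11a (73.7 ± 3.05) and Tle4 (58.3 ± 17.3) followed, each overlapping the next. Zfpm2 (15.4 ± 4.04), Foxp1 (12.5 ± 0.627), Crym (8.67 ± 5.24) and Foxp2 (3.02 ± 1.24) formed the low end, again with overlap between neighbours. In TdTomato− cells Bcl11b led with 79.5 ± 5.62 CPM per kb, and its range overlapped that of Tbr1 at 63.8 ± 16.7. Bcl11a (42.4 ± 2.16) and Fezf2 (37.8 ± 5.76) came next, and Sox5, Tle4 and Foxp1 lay between 10.2 and 14.5 on average. Foxp2 (4.09 ± 0.677), Zfpm2 (2.48 ± 0.167) and Crym (1.06 ± 0.721) were lowest and did not overlap. The leading gene was thus Bcl11b together with Tbr1 in one population and Tbr1 alone in the other. These are levels of RNA. By staining, the study found little or no Tbr1 protein in TdTomato+ cells at E14.5.

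**Figure D3:**
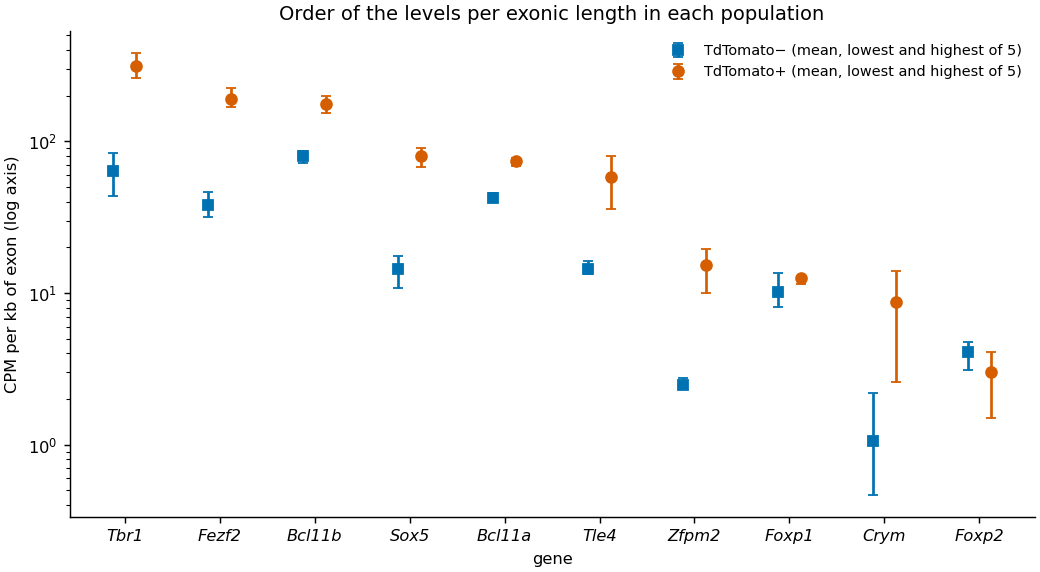
Mean CPM per kb of exon (log axis) of each gene in TdTomato− (blue squares) and TdTomato+ (orange circles) libraries, with bars from the lowest to the highest of 5 libraries and genes ordered by their TdTomato+ level. Tbr1 stands above the other genes in TdTomato+ cells at 314 CPM per kb, and Foxp1 and Foxp2 have bars that overlap between the populations.

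The libraries of mice 3 and 4 shared a pattern within the TdTomato+ population that was noticed after the values had been seen and was not tested. They were the 2 lowest TdTomato+ libraries for 6 members, Fezf2, Tle4, Zfpm2, Foxp1, Foxp2 and Crym, an order that 19.6% of all genes had, and for Foxp1 the gap to the next library was small. For Tbr1, Sox5 and Bcl11b they were the 2 highest, which also held for 19.6% of all genes. The pattern crossed the groups, since Tbr1 moved opposite to Tle4, Zfpm2 and Foxp2, and Bcl11b opposite to Crym. It was widest for Crym, with deviations of −0.97 and −1.44 from the mean log2 CPM in mice 3 and 4 and of 0.99 in mouse 2. Of the 9 corticothalamic companions, 5 had the low order (Hs3st4, Sla, Syt6, Ntsr1 and Rprm), 1 had the high order (Sulf1) and 3 had neither. Hs3st4 was at 94.8 and 71.9 CPM in mice 3 and 4 against 182 to 247 CPM in the others. Grem1 did not split in this way, at 68.4 and 60.7 CPM in mice 3 and 4 and 61.6 to 63.8 CPM in the others. In TdTomato− cells mice 3 and 4 were the highest for Tbr1, Sox5, Bcl11b, Bcl11a and Tle4, as for 17.3% of all genes, and the lowest for Foxp1 and Crym, as for 16.2%. The labels give no litter or day for the mice, and no batch of theirs could be compared.

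**Figure D4:**
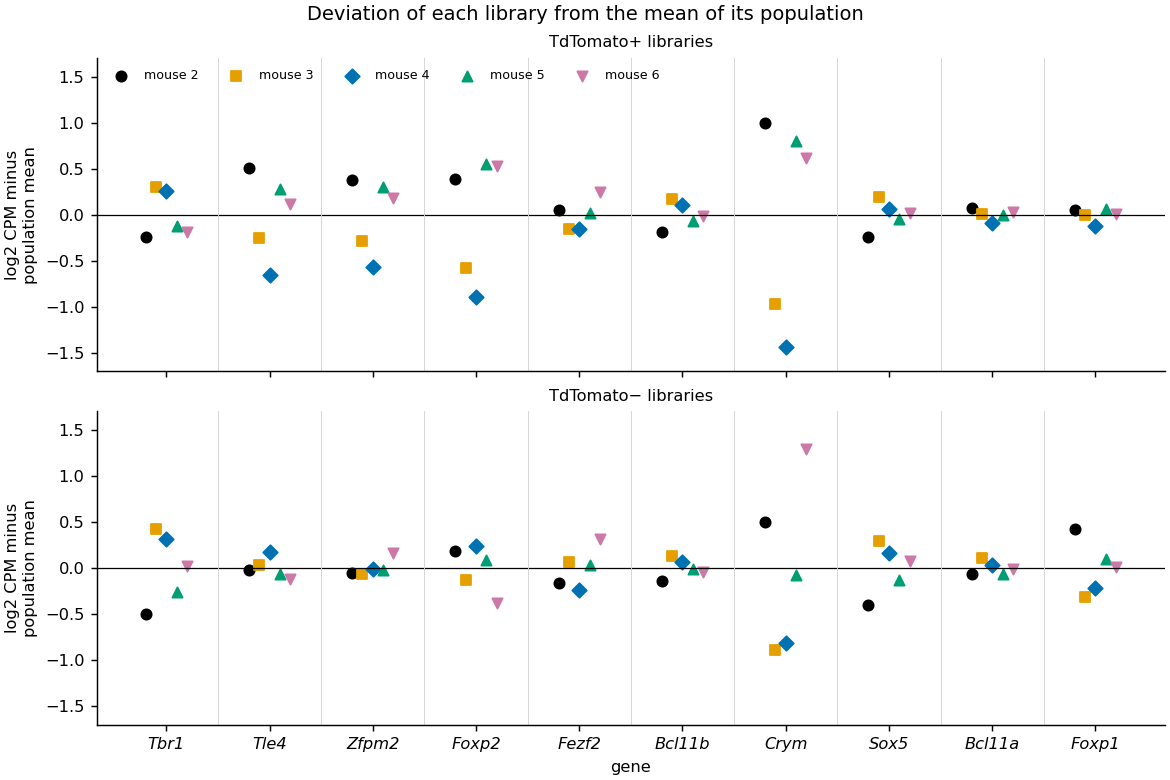
Log2 CPM of each library minus the mean of its population, for 10 genes, with a symbol for each of 5 mice (TdTomato+ libraries above, TdTomato− below). In TdTomato+ cells mice 3 and 4 lie lowest for 6 genes, down to −1.44 for Crym, and highest for Tbr1, Sox5 and Bcl11b.

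Genes known to accompany the corticothalamic class were mostly higher, as Tbr1, Tle4 and Zfpm2 were but Foxp2 was not. Of 9 listed, 8 were higher, against 37.9% of all genes, and none was lower, against 39.4%. The median log2 fold change was 1.59, and Sulf1 did not pass (0.41, adjusted p = 0.0863, and 0.0455 with DESeq2). Sla and Hs3st4 rose by 4.24 and 4.19, and Ntsr1, a neurotensin receptor of layer VI neurons, by 3.28, from 9.45 ± 0.424 to 93.0 ± 17.3 CPM. Nfib and Nfia, nuclear factors that also act in glia, rose by 1.29 and 1.05, Rprm by 1.88, Lmo3 by 1.59 and Syt6 by 0.50.

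The companions of the subcerebral class were mixed, unlike Fezf2, Bcl11b and Crym themselves. Of 11 listed, 3 were higher, against 37.9% of all genes, and 7 lower, against 39.4%. Their median was −0.86, and Pcp4 did not pass (−0.41, adjusted p = 0.102). Ldb2 rose by 2.60, from 27.8 ± 5.63 to 166 ± 9.56 CPM, and Crim1 and S100a10 by 0.53 and 0.46. Etv1, a factor of later layer V neurons, fell by 2.03 and Diaph3, a formin that dividing cells also express, fell by 4.01. Otx1, Igfbp4, Cntn6, Ntng1 and Opn3 were lower by smaller amounts, and Cntn6, Opn3 and Pcp4 averaged under 2 CPM in both populations. With library size alone S100a10 no longer passed (0.28, adjusted p = 0.093) and Pcp4 did (−0.59, adjusted p = 0.0283), so that 2 were higher and 8 lower. The difference between both companion lists was not tested, nor was the part of progenitor RNA in the lower genes.

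Genes of callosal neurons, which connect the hemispheres, and of upper layers are known to be opposed by the corticofugal regulators. Of 10 listed, 6 were lower, against 39.4% of all genes, and 3 higher, against 37.9%, with a median of −1.19. All 11 progenitor genes were lower too, and the part of progenitor RNA in these falls was not tested. Cux1 was at −2.63 and Cux2 at −2.08, Pou3f2 at −2.28 and Pou3f3 at −2.22 (log2 fold changes). Cited2 and Lmo4 were also lower, and Inhba did not pass the test (0.04, adjusted p = 0.851, and −0.14 with library size alone). Among the higher genes, Lpl rose by 3.38 and Ski by 0.31.

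The relatives and binding partners of the members were mostly lower. Of 16 listed, 15 were in the table, with 3 higher and 12 lower, against 37.9% and 39.4% of all genes, and a median of −0.88. Among the Groucho genes, Tle2 rose with Tle4, by 1.73, while Tle1, Tle3 and Tle5 were lower, at −1.29, −0.88 and −0.12. Sox6 and Sox13, the other genes of the SoxD family, were at −4.11 and −4.14, where Sox5 was at 2.47. Fezf1 was lower by 2.11 at a low level, Foxp4 was at −0.19, and Eomes, the T-box relative of Tbr1 that marks intermediate progenitors, fell by 5.07. Cask, which encodes a partner of Tbr1, rose by 1.35, and the Zfpm2 paralog Zfpm1 by 0.35. The nuclear receptors Nr2f1 and Nr2f2 were at −1.05 and −1.56, and the co-repressors Ctbp1 and Ctbp2 at −0.25 and −0.48. With library size alone Zfpm1 no longer passed (0.17, adjusted p = 0.155), and Tle5 no longer passed with RLE factors (−0.11, adjusted p = 0.0609) or with DESeq2.

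The members were also set against the median change of the pan-neuronal list, 0.98. By that measure 7 members were above and 3 below, namely Bcl11a at −0.19, Foxp1 at −0.67 and Foxp2 at −1.51. Against the pallial glutamatergic median of 1.55, 6 were above and 4 below, with Bcl11b at −0.40 joining the other 3. Tbr1, Fezf2, Sox5, Tle4, Zfpm2 and Crym were above both, by 0.42 (Tle4) to 1.46 (Crym) over the higher of these medians.

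Bcl11b, Foxp1 and Foxp2 mark striatal projection neurons as well. The striatal list was lower in 11 of 13 genes and higher in 2, against 39.4% and 37.9% of all genes. Ebf1 was at −4.66, Isl1 at −4.03 and Six3 at −4.81. The summed level of the striatal list was 866 to 954 CPM in TdTomato− and 491 to 579 CPM in TdTomato+ cells. Meis2 alone was at 635 ± 32.6 and 330.0 ± 30.8 CPM. Drd1 and Ppp1r1b, which deep-layer cortical neurons are also known to express, rose by 3.74 and 3.27. How much striatal RNA contributed to the 3 members in TdTomato− cells was not tested. Markers of neighbouring early-born cells were mixed, with all 8 Cajal-Retzius genes lower and 4 of 7 subplate genes higher, among them Nr4a2 by 2.49 and Kcnab1 by 3.77, and 3 lower, Ccn2, Moxd1 and Lpar1. Of the smaller lists, all 3 thalamic and all 4 microglial genes in the table were lower, 1 of 2 endothelial genes was lower (2 with upper-quartile factors or library size alone, where Pecam1 also passed) and the 1 meningeal gene did not pass.

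The genes whose profiles lay closest to a member over the 10 libraries, among 9785 genes of at least 3 in mean log2 CPM, were found by the root mean square distance of centred log2 CPM. Closest to Tbr1 were Kit (0.0953), Kcng1 (0.103) and Crtac1 (0.173), with increases of 2.34, 2.37 and 2.26. Fezf2 had Lnx2 (0.114), Tmem108 (0.123) and Nlgn1 (0.152) as its nearest, and Bcl11b had Ssbp3 (0.0616), Peli1 (0.0803) and Zfp663 (0.0826). Kit, a receptor tyrosine kinase, rose from 54.9 ± 12.2 to 276 ± 36.1 CPM, and Ssbp3, a cofactor of LIM-domain complexes, from 439 ± 27.7 to 942 ± 79.3 CPM. The distances describe likeness over these libraries and are dominated by the difference between the populations.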

How the data were processed

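RNA of TdTomato+ and TdTomato− cells from 5 mice was sequenced as poly-A libraries. Before depositing the table of counts per gene, the authors trimmed the reads and aligned them to GRCm38 with STAR 2.4.2a, keeping uniquely mapped reads, and their processing notes also list edgeR 3.28.0. The annotation release and strand column are not given in the sources used here. Every gene of the table exceeded 0.5 CPM in at least 5 libraries. Symbols, exonic lengths and coordinates came from GENCODE M21. Counts were compared by the quasi-likelihood test of edgeR 4.0.16 under R 4.3.3, with TMM factors, the filterByExpr filter (which kept every gene), the mouse as a block and Benjamini-Hochberg adjustment over 14300 genes, and log2 CPM used a prior count of 2. Libraries were paired by the number in the labels. It was read as the mouse because the study sorted 5 mice and its methods state paired comparisons. Deviations of paired libraries from the population means correlated at 0.186 to 0.316 across genes, against −0.312 to 0.212 for different mice. No 2 libraries of a population were alike within sampling noise (chi-square per degree of freedom of at least 4.46). The members and lists were chosen with earlier results of these data known. Named genes are the members, the genes of the lists, and for Tbr1, Fezf2 and Bcl11b the 3 genes nearest in profile. Genes named for the split of mice 3 and 4 were chosen after their values were seen. Alternatives were RLE, upper-quartile and no scaling factors, DESeq2 1.42.0, other count filters, no block, robust estimation and each mouse left out. The test was run on simulated counts with known changes in few genes, the same spread for all genes and no difference between mice. That run does not bear on the pairing or the scaling in these data. Depth was similar between libraries, and floors cover counting error only. 1 gene of the lists enters their counts and medians but is not reported here by name.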

Additional observations from a re-analysis of the deposited data

Results flagged for a closer look

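Zfpm2 in TdTomato− cells was highest in mouse 6, at 26.4 CPM against 22.5 to 23.5 CPM in the other 4 mice. The gap to the nearest library was 0.749 of the whole range on the log2 scale, above Dixon's critical value of 0.71 for 5 values. Of 30 such groups of 5 values examined, 1 stood apart, and chance gives 1.5.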

How the results depend on the processing

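The number of members with a higher level stayed at 9 under RLE and upper-quartile factors, other count filters, robust estimation, DESeq2 and each left-out mouse, and was 8 with library size alone. Members with a lower level numbered 0, except 1 (Foxp2, log2 fold change −0.70, adjusted p = 0.0288) with library size alone, and 0 to 1 over the left-out mice. With library size alone Foxp1 was at 0.14. With no pairing of the libraries by mouse, 9 members were higher, 6 passed both thresholds in place of 5, the sixth being Tle4 (log2 fold change 2.02), and 1846 in place of 1850 of all genes did. In that unpaired fit no member crossed the adjusted p threshold. With each mouse left out, 5 to 6 members and 1831 to 1866 genes passed both thresholds. Relative to the pan-neuronal median, Bcl11a (−0.19) and Foxp1 (−0.67) turned negative, and relative to the pallial glutamatergic median Bcl11a (−0.75), Bcl11b (−0.40) and Foxp1 (−1.23) did, since those medians were subtracted. The corticothalamic minus subcerebral change, −0.56, was −0.16 without Crym and 0.15 without Foxp2 (an alternative chosen after seeing the data), was −0.81 without Tbr1 (likewise), and ran from −0.68 to −0.44 over the left-out mice. Counting error was small for every member but bears most on Crym, and 5 mice limit what can be said of Foxp2.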
